A study of Mus musculus with 4 samples.

Results

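Nuclei of unwounded mouse back skin that carried keratinocyte transcripts but no Skint transcript made up 254 of the 9251 nuclei that passed the quality limits in the unwounded libraries, and of 10928 in all libraries. They were chosen on their own counts. A nucleus had to show at least 400 genes, at most 5% mitochondrial counts, a unique molecular identifier (UMI) for at least 2 of the 5 genes Trp63, Col17a1, Itgb4, Dsc3 and Krt5, no UMI for Skint5, Skint6, Skint9 or Skint11, and UMIs for fewer than 3 of the 6 sebaceous lipid genes Far2, Fa2h, Elovl6, Acoxl, Scd3 and Soat1. They are called Skint-negative nuclei below, and the genes of this gate are not results. Unwounded replicate 1 gave 150 of them among 5536 nuclei (2.71%, 95% Wilson interval 2.31 to 3.17%), and unwounded replicate 2 gave 104 among 3715 (2.80%, 2.32 to 3.38%).

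Of the 4 libraries, 2 were made from back skin 1 day after wounding (1dpw) and 2 from unwounded back skin. All mice were C57BL/6, wild type and 8 weeks old, and the cells are labelled as mixed skin cells. Nuclei were freed by grinding and their RNA was counted with 10x Genomics 3' chemistry. The labels do not say whether the libraries of a group came from separate animals. The p-values below measure only how class differences varied between these 2 libraries, by a spread shared over all summed classes. That spread may be technical. The reference classes are nuclei of the same 2 unwounded libraries: 93 and 62 Skint-positive nuclei, which passed the keratinocyte gate and held a Skint UMI, and 5182 and 3442 other nuclei outside the keratinocyte and sebaceous gates.

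The basal layer of the epidermis and the outer layer of the hair follicle share keratins 5 and 14, the transcription factor p63 (Trp63) and the integrins and collagen XVII that anchor cells to the basement membrane. Basal cells divide, leave the membrane and change keratin pair to Krt1 and Krt10 as they build the barrier, while the follicle keeps stem cells of its own in the bulge and isthmus, marked by genes such as Lgr5, Cd34 and Lgr6. Skint genes encode immunoglobulin-family membrane proteins of skin and thymus known for their role in the selection of epidermal gamma-delta T cells.

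Depth was low. Skint-negative nuclei held 227468 and 118856 UMIs in replicates 1 and 2, with medians of 1144 and 927 per nucleus, against 159177 and 66793 UMIs with medians of 1348 and 941 in Skint-positive nuclei, and medians of 1082 and 969.5 in other nuclei. A gene at 0 in Skint-negative nuclei could therefore lie as high as 13.2 and 25.2 CPM, the level of 3 counts, where CPM is a gene's count scaled to the same total in every class and library. An automatic doublet caller marked 0 of the 5536 and 0 of the 3715 nuclei and so had not worked, and the main values keep all nuclei. The unwounded libraries shared 30 barcodes, of which 0 belonged to Skint-negative nuclei.

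Absence of a Skint UMI is a weak sign at this depth. Among nuclei that passed the keratinocyte gate, 38.3% in replicate 1 and 37.3% in replicate 2 held a Skint UMI, while 11.8% and 12.1% of other nuclei, whose median depths were close, held one too. Where such nuclei with at least 1000 UMIs were thinned to 1000, the Skint-positive share was 34.4% and 34.3%, against 40.6% and 40.0% before thinning. Of the Skint-positive nuclei so thinned, 55 of 65 and 24 of 28 kept a Skint UMI. In a given nucleus, a missed Skint transcript and an absent one cannot be told apart.

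The label of basal and follicular keratinocytes was borne out for some of these nuclei. Summed over 6 keratinocyte markers outside the gate (Krt14, Itga6, Dsp, Pkp1, Perp and Lama3), Skint-negative nuclei held 1191 and 1456 CPM, against 2488 and 2949 CPM in Skint-positive nuclei and 155 and 207 CPM in other nuclei. All 6 markers were detected in Skint-negative nuclei. Sox9, the follicle stem cell factor, was sparse, with 7 and 4 UMIs in 11 nuclei.

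The sum of these markers was higher in nuclei with more gate genes, up to 3 gate genes in both libraries. At 2 gate genes it was 786 and 1296 CPM over 92 and 73 nuclei, at 3 gate genes 1695 and 1857 CPM over 40 and 23 nuclei, and at 4 or 5 gate genes 2343 and 1728 CPM over 18 and 8 nuclei. Just outside the gate, 661 and 472 nuclei with 1 gate gene held 188 and 278 CPM. Fibroblast markers were lower in nuclei with more gate genes, and muscle markers were highest at 1 gate gene. The 8 fibroblast markers summed to 6600 and 7129 CPM at 2 gate genes, and to 2972 and 3057 CPM at 4 or 5. The 7 skeletal muscle markers summed to 3366 and 3904 CPM at 0 gate genes, 24461 and 21568 CPM at 1, 12475 and 13489 CPM at 2, 933 and 607 CPM at 3, and 909 and 1063 CPM at 4 or 5. At the sebaceous limit, 8 and 5 nuclei inside it held 2 of the sebaceous genes, and 2 and 6 nuclei just outside held 3.

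**Figure D1:**
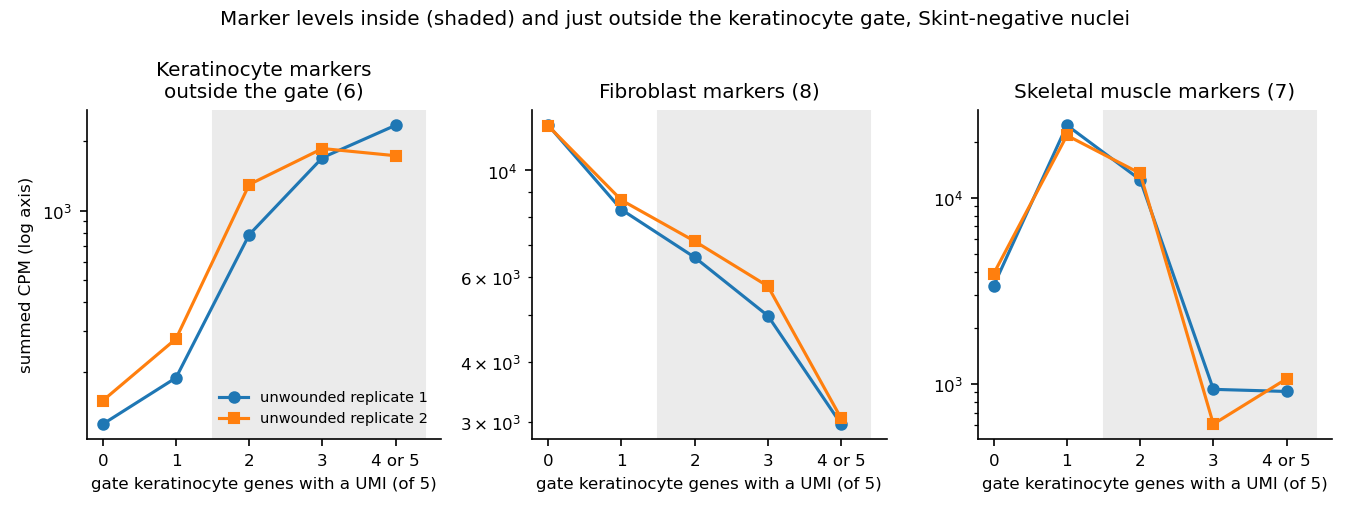
Summed CPM of keratinocyte, fibroblast and skeletal muscle markers in Skint-free nuclei of the unwounded libraries, by the number of keratinocyte gate genes with a UMI, for replicates 1 and 2. Keratinocyte markers outside the gate are low at 0 and 1 gate genes and higher from 2 up, while muscle markers drop to 933 and 607 CPM at 3 gate genes.

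Clustering of the 254 nuclei alone gave 8 groups, given here as description because the same counts made them. The group led by Il20ra, a receptor chain for interleukins of the IL-20 family, held 36 nuclei of replicate 1 and 23 of replicate 2 at a median of 992 UMIs. Il20ra had 49 UMIs in 33 of its 59 nuclei, 15.3-fold above the CPM of the other Skint-negative nuclei. The next genes by fold were Trpm3, Slc22a4, Dab1, Ifitm10 and Fcgbp. Of the 8 markers of interfollicular basal keratinocytes, 5 were at least 2-fold above the rest, and these nuclei held 26 of the 57 Krt15 UMIs, 20 of the 45 Krt14 UMIs and 37 of the 106 Lgr6 UMIs of all Skint-negative nuclei.

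The group led by Kcnk2 and Tgm5 held 19 and 12 nuclei at a median of 1027 UMIs and carried bulge and outer root sheath markers. Upper follicle markers were not raised in it, at 643 CPM against 732 CPM in the rest. Kcnk2 encodes a potassium channel and Tgm5 a transglutaminase of skin. Of 10 bulge and outer root sheath markers, 9 were at least 2-fold above the rest, with a sum of 3214 CPM. Lgr5 had 30 UMIs in 11 of these nuclei, Cd34 had 13 UMIs in 11, Lhx2 had 8 in 7, Sox9 had 6 in 6 and Tbx1 had 6 in 6. Krt15 had 14 UMIs in 10 nuclei. Other leading genes were Thsd1, Trabd2b and Cacna1c. The largest fold of this group belonged to Dct, a melanin synthesis enzyme of melanocytes, whose 28 UMIs came from 4 nuclei of replicate 1, and 4 of 8 melanocyte markers were at least 2-fold above the rest.

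A group of 10 and 3 nuclei carried the transcripts of dividing cells. Its leading genes were Ect2, Anln, Top2a, Cenpf, Mki67 and Lockd, and 12 of the 20 cell cycle genes were at least 2-fold above the rest. Top2a, the DNA topoisomerase of dividing cells, had 35 UMIs in 12 of the 13 nuclei. Cenpf, a kinetochore protein, had 25 UMIs in 11, and Mki67, the proliferation marker Ki-67, had 20 UMIs in 8.

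A group of 13 and 3 nuclei at a median of 2084 UMIs was led by Ctnnd2, Pparg, Kcnd2, Slc1a3, Arhgap24 and Sh3rf3. Pparg, the master factor of fat and sebaceous cell differentiation, had 46 UMIs in 13 of the 16 nuclei, and 3 of 9 sebocyte markers were at least 2-fold above the rest. Lgr6, a stem cell marker of the isthmus, had 24 UMIs in 9 of them, and 9 of 20 cell cycle genes were also at least 2-fold above the rest.

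In 3 of the remaining 4 groups muscle or fibroblast markers stood above the rest. The group of Ttn and Neb, the giant proteins of the sarcomere, held 7 and 4 nuclei at a median of 3690 UMIs, or 12.2% of all UMIs of the Skint-negative nuclei. All 7 muscle markers were at least 2-fold above the rest, at 65279 CPM against 983 CPM in the other Skint-negative nuclei, and Ttn alone had 1943 UMIs. The 6 keratinocyte markers outside the gate summed to 47.5 CPM there. Each of these 11 nuclei had a Trp63 UMI, the only gate gene with more than 5 UMIs in the group. Adamts2 and Olfml1 were among the leading genes of 32 and 31 nuclei, in which all 8 fibroblast markers were at least 2-fold above the rest, with a sum of 11867 CPM. Of the 8 endothelial markers, 5 were also at least 2-fold above the rest, with a sum of 458 CPM. The largest fold of this group was that of Mecom, whose 28 UMIs came from 4 nuclei, and 9 of its nuclei were among the highest doublet scores. In a further 18 and 5 nuclei led by Aebp1 and Meg3, the fibroblast sum was 14240 CPM. The last 15 and 23 nuclei had a median of 749.5 UMIs. Among genes with at least 20 UMIs and 200 CPM in them, none was more than 2.67-fold above the rest, and Slc24a3 led. Slc24a3, a calcium exchanger, had 589 and 681 CPM in all Skint-negative nuclei, against 1809 and 1647 CPM in Skint-positive nuclei and 68.0 and 82.7 CPM in other nuclei. The 6 keratinocyte markers outside the gate summed to 1807 CPM in these last nuclei, against 1231 CPM in the remaining Skint-negative nuclei.

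**Figure D2:**
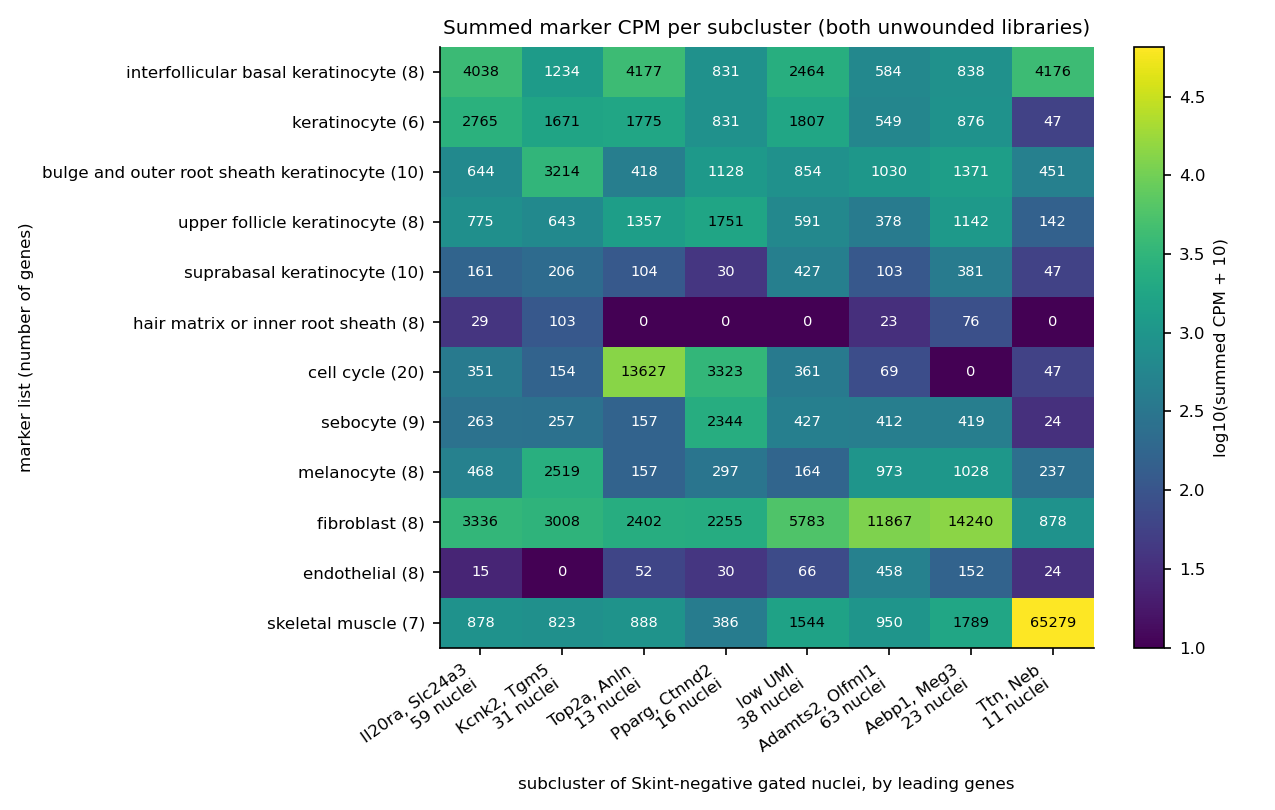
Summed CPM of marker lists in the 8 groups found by clustering the 254 Skint-negative nuclei, each group named by leading genes with its number of nuclei. Bulge and outer root sheath markers peak in the Kcnk2 and Tgm5 group at 3214 CPM. Upper follicle markers peak in the Ctnnd2 and Pparg group at 1751 CPM. Cell cycle genes peak in the Top2a and Anln group at 13627 CPM and muscle markers in the Ttn and Neb group at 65279 CPM.

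Markers of other cell types stood beside these results in whole lists. Over all Skint-negative nuclei, the fibroblast markers summed to 5772 and 6546 CPM, against 4448 and 5315 CPM in Skint-positive nuclei and 11620 and 11686 CPM in other nuclei. Skeletal muscle markers summed to 8357 and 9667 CPM in Skint-negative nuclei, against 773 and 2575 CPM in Skint-positive nuclei. Macrophage markers were at 338.5 and 471 CPM in Skint-negative nuclei, against 802 and 785 CPM in other nuclei. Among T cell markers, Themis, Cd3e, Cd3g and Trdc were at 0, as were Cd207 of Langerhans cells and Krt20, Atoh1, Krt8, Krt18 and Sox2 of Merkel cells. The part of fibroblast and macrophage transcripts in the results below was not tested beyond the leave-outs given there.

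Compared with Skint-positive nuclei of the same libraries, Skint-negative nuclei were low in the keratins and barrier genes of the upper epidermis, while no tested basal layer gene outside the gate was called. The test was edgeR's quasi-likelihood test on counts summed per class and library, with the library as a block and Benjamini-Hochberg adjusted p under 0.05 as the call. Of 5334 genes tested, 155 (2.91%) were higher and 221 (4.14%) were lower in Skint-negative nuclei, 7.05% together. The split into classes used counts of these same nuclei, so genes whose transcripts come with Skint transcripts were bound to differ.

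Many of the higher genes were counted mostly in the muscle-led nuclei. Of the 155, 66 (42.6%) had at least 50% of their UMIs in the Ttn and Neb group, against 2.78% of all tested genes with a UMI. Without nuclei that held at least 3 of the 7 muscle markers, 54 genes were higher and 118 lower, of which 51 and 117 were among the genes called with all nuclei. With only nuclei of at least 3 gate genes, 58 and 31 Skint-negative against 38 and 21 Skint-positive, 12 genes were higher and 10 lower.

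Of 23 suprabasal differentiation and barrier genes, 13 were tested and 12 were lower in Skint-negative nuclei. Their median log2 fold change was -2.56 against 0.01 over all genes tested. The filter on low counts passes a gene by its level in any class. Krt10 and Krt1 were low in every class but Skint-positive nuclei, so they were tested because they were high there. This count and median are therefore not independent of the filter. With at least 3 gate genes 2 of 11 tested members were lower, against 10 of all 4163 genes tested. Without nuclei of at least 3 muscle markers 9 of 11 were lower, against 118 of all 4811. Krt10 (chr11:99385254-99389364, minus strand, GRCm38), the keratin of cells that have left the basal layer, had 8.79 and 16.8 CPM in Skint-negative nuclei, against 320 and 404 CPM in Skint-positive nuclei. The log2 fold change was -4.93 ± 0.55 (SE, edgeR adjusted p = 6.04e-10). The classes did not overlap. How many of all tested genes did not overlap was not counted, so here and below this is description only. Krt1 (chr15:101845426-101850794, minus strand), its partner, had 4.4 and 16.8 CPM in Skint-negative nuclei, against 201 and 269 CPM in Skint-positive nuclei (log2 fold change -4.70 ± 0.65, edgeR adjusted p = 1.85e-07).

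A Krt10 UMI was found in 1.33% and 1.92% of Skint-negative nuclei, against 26.9% and 27.4% of Skint-positive nuclei and 2.28% and 2.88% of other nuclei, which lie outside the keratinocyte gate. The Skint-negative share was not above that of other nuclei in either library, so these UMIs are not read as expression.

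Abca12, the lipid transporter of lamellar granules (chr1:71242276-71414910, minus strand), had 22.0 and 25.2 CPM in Skint-negative nuclei, against 390 and 225 CPM in Skint-positive nuclei (log2 fold change -3.84 ± 0.50, edgeR adjusted p = 3.53e-08). Notch3, a Notch receptor (chr17:32120820-32166852, minus strand), had 39.6 and 16.8 CPM in Skint-negative nuclei, against 220 and 269 CPM in Skint-positive nuclei (-2.93 ± 0.48, edgeR adjusted p = 6.85e-06). Grhl1, a transcription factor of desmosomal genes, fell by 2.94 on the log2 scale, and Dsg1a, a desmosomal cadherin of the upper layers, fell by 2.35. Krtdap, Sbsn, Elovl4, Exph5 and Casz1 were among the other lower members of the list. With only nuclei of at least 3 gate genes, Krt10 and Notch3 were the members still called, while the edgeR adjusted p was 0.062 for Krt1, 0.25 for Abca12, 0.44 for Grhl1 and 0.21 for Dsg1a.

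**Figure D3:**
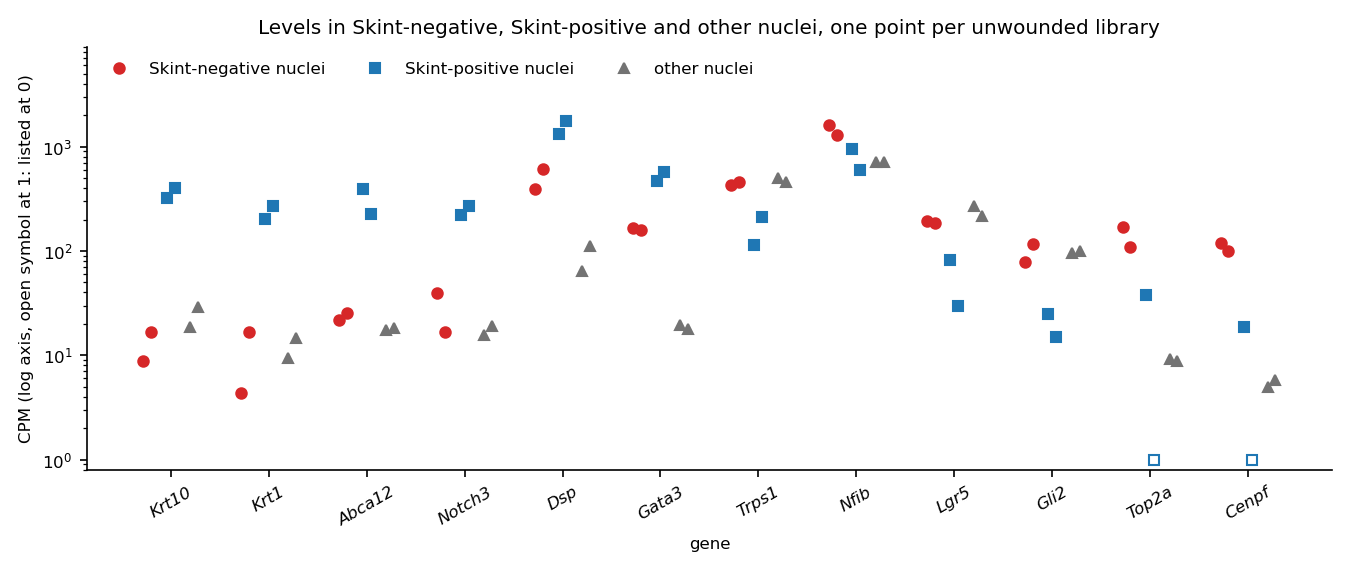
CPM of 12 named genes in Skint-negative, Skint-positive and other nuclei on a log axis, with 1 point per unwounded library and an open symbol at 1 for a library listed at 0. Krt10, Krt1, Abca12 and Notch3 of Skint-negative nuclei lie near other nuclei and below both Skint-positive libraries, with Krt10 at 8.79 and 16.8 CPM, while Top2a and Cenpf lie above both other classes.

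Ptgs1, which encodes cyclooxygenase 1 (chr2:36230426-36252272, plus strand), had 0 and 0 CPM in Skint-negative nuclei, against 132 and 210 CPM in Skint-positive nuclei. Taken against 3 counts over both Skint-negative libraries, it was at least 17.9-fold lower (edgeR adjusted p = 3.62e-07). Aadacl2 had 0 and 8.41 CPM in Skint-negative nuclei, against 88.0 and 240 CPM in Skint-positive nuclei (edgeR adjusted p = 1.1e-05).

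Tprg, Adgrf4, Mboat2 and Acer1 had log2 fold changes of -4.63, -4.50, -4.4 and -4.36. Mboat2 is an acyltransferase of phospholipids and Acer1 a ceramidase of the epidermis. With at least 3 gate genes, their edgeR adjusted p was 0.5, 0.42, 0.63 and 0.09. Sult2b1, a cholesterol sulfotransferase, Hal, the histidine ammonia-lyase of the upper epidermis, Pglyrp4, a peptidoglycan recognition protein, and Fam25c completed the largest falls. These 4 calls were lost without some libraries: the edgeR adjusted p was 0.2 for Sult2b1 without Skint-positive replicate 1, 0.38 for Hal without Skint-negative replicate 1, 0.18 for Pglyrp4 without Skint-positive replicate 2 and 0.4 for Fam25c without Skint-negative replicate 2.

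Of 13 desmosome and junction genes, 10 were tested, 0 were higher and 4 were lower in Skint-negative nuclei, with a median log2 fold change of -0.95. Dsp, which encodes desmoplakin, the link of desmosomes to keratin (chr13:38151294-38198577, plus strand), had 396 and 606 CPM in Skint-negative nuclei, against 1307 and 1767 CPM in Skint-positive nuclei (log2 fold change -1.66 ± 0.21, edgeR adjusted p = 1.54e-08). Pkp1, a plakophilin, had 114 and 92.5 CPM in Skint-negative nuclei, against 327 and 404 CPM in Skint-positive nuclei (-1.76 ± 0.35, edgeR adjusted p = 0.000235). Both genes lay below both Skint-positive libraries in each Skint-negative library, a pattern not counted over all tested genes. With the gate read at 1000 UMIs the edgeR adjusted p of Pkp1 was 0.27, and with at least 3 gate genes it was 0.42. At that last setting 9 members were tested and Dsp was the only one called.

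Jup, plakoglobin, and Ctnnd1, p120 catenin, were also called, but the edgeR adjusted p was 0.13 for Jup and 0.87 for Ctnnd1 without Skint-positive replicate 1, and 0.08 for Jup and 0.26 for Ctnnd1 without Skint-negative replicate 1. Dsg2 and Dsg3, the desmosomal cadherins of the lower layers, had log2 fold changes of 1.09 ± 0.59 and 1.10 ± 0.51 and were not called.

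Of 15 basal layer and hemidesmosome genes outside the gate, 12 were tested and 0 were called by edgeR, with a median log2 fold change of 0.28. Krt15, a keratin of basal and bulge cells, had 145 and 202 CPM in Skint-negative nuclei, against 69.1 and 89.8 CPM in Skint-positive nuclei (log2 fold change 1.10 ± 0.47, edgeR adjusted p = 0.177). Lama3, a chain of laminin-332, had 158 and 210 CPM in Skint-negative nuclei, against 214 and 210 CPM in Skint-positive nuclei (-0.26 ± 0.36). Itgb1, an integrin chain, had 127 and 160 CPM in Skint-negative nuclei, against 94.2 and 135 CPM in Skint-positive nuclei (0.35 ± 0.39). These intervals are wide, and the missing calls do not show that basal genes were equal.

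Of 15 follicle stem cell and bulge genes, 9 were tested and 2 were higher in Skint-negative nuclei, with a median log2 fold change of 0.70. Lgr5, the Wnt-amplifying receptor of cycling follicle stem cells (chr10:115450311-115587780, minus strand), had 193 and 185 CPM in Skint-negative nuclei, against 81.7 and 29.9 CPM in Skint-positive nuclei (log2 fold change 1.53 ± 0.42, edgeR adjusted p = 0.0121). Gli2, a Hedgehog effector (chr1:118834132-119053619, minus strand), had 79.1 and 118 CPM in Skint-negative nuclei, against 25.1 and 15 CPM in Skint-positive nuclei (2.05 ± 0.64, edgeR adjusted p = 0.0339). Neither gene overlapped between the classes, but how many of all tested genes did so was not counted. With at least 3 gate genes neither was called. Gli2 was as high in other nuclei, at 96.0 and 100 CPM. Of its 32 UMIs in Skint-negative nuclei, 14 lay in the Adamts2 and Olfml1 group and 11 in the Kcnk2 and Tgm5 group.

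Both calls were lost without single libraries and with DESeq2, whose adjusted p was 0.089 for Lgr5 and 0.18 for Gli2. For Lgr5 the edgeR adjusted p was 0.087 without Skint-negative replicate 1, 0.053 without Skint-positive replicate 1 and 0.061 without Skint-positive replicate 2. For Gli2 it was 0.066 and 0.17 without Skint-negative replicates 1 and 2, and 0.23 and 0.11 without Skint-positive replicates 1 and 2. Lgr5 was also abundant outside the gate, at 269 and 217 CPM in other nuclei, and a Lgr5 UMI was found in 17.3% and 11.5% of Skint-negative nuclei, against 12.9% and 3.23% of Skint-positive and 19.3% and 15.6% of other nuclei. Tcf7l2, Nfatc1 and Cd34 had log2 fold changes of 0.68, 1.13 and 0.70 and were not called.

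Of 10 upper follicle genes, 3 were tested and 0 were called by edgeR. Lgr6 (chr1:134983301-135105276, minus strand), a receptor of isthmus and basal stem cells, had 334 and 252 CPM in Skint-negative nuclei, against 214 and 165 CPM in Skint-positive nuclei (log2 fold change 0.61 ± 0.33). Of 12 outer root sheath and hair germ genes, 5 were tested and 1 was called. Trps1, a zinc-finger repressor of the follicle (chr15:50654752-50890463, minus strand), had 426 and 463 CPM in Skint-negative nuclei, against 113 and 210 CPM in Skint-positive nuclei (1.59 ± 0.30, edgeR adjusted p = 0.00013). Without Skint-positive replicate 1 the edgeR adjusted p of Trps1 was 0.16. Trps1 is also a dermal papilla gene, 61 of its 152 UMIs lay in the Kcnk2 and Tgm5 group and 23.0% in the Ttn and Neb group, and other nuclei had 499 and 456 CPM. Of 17 hair matrix and sheath genes only Gata3, a zinc-finger factor of inner root sheath and epidermis, was tested. Gata3 had 167 and 160 CPM in Skint-negative nuclei, against 471 and 569 CPM in Skint-positive nuclei (-1.65 ± 0.28, edgeR adjusted p = 1.45e-05). The edgeR adjusted p was 0.17 with the gate read at 1000 UMIs, and Gata3 was not called with at least 3 gate genes.

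Of 16 epidermal transcription factors, 10 were tested and 2 were higher in Skint-negative nuclei. With at least 3 gate genes 0 of 10 were called. Nfib, a nuclear factor I protein of follicle stem cells, had 1596 and 1279 CPM in Skint-negative nuclei, against 942 and 599 CPM in Skint-positive nuclei (log2 fold change 0.85 ± 0.21, edgeR adjusted p = 0.00335). Bach2 had 299 and 202 CPM in Skint-negative nuclei, against 119 and 120 CPM in Skint-positive nuclei (1.12 ± 0.34, edgeR adjusted p = 0.0272). Without Skint-negative replicate 1 the edgeR adjusted p was 0.1 for Nfib and 0.49 for Bach2, and without Skint-positive replicate 1 it was 0.35 for Bach2.

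In the Notch list 10 of 13 were tested and 3 were lower in Skint-negative nuclei: Notch3, Notch2, a second receptor, and Maml3, a coactivator of Notch. With at least 3 gate genes Notch3 was the only member called. Notch2 had 119 and 75.7 CPM in Skint-negative nuclei, against 283 and 269 CPM in Skint-positive nuclei (log2 fold change -1.45 ± 0.33, edgeR adjusted p = 0.00178). The edgeR adjusted p without Skint-positive replicate 1 was 0.089 for Notch2 and 0.15 for Maml3, and Maml3 also lost its call without each of the other libraries.

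In the Wnt list 11 of 34 were tested and 1 was lower, Lrp4, a co-receptor, at 136 and 92.5 CPM in Skint-negative nuclei, against 346 and 240 CPM in Skint-positive nuclei (edgeR adjusted p = 0.00321, and 0.23 without Skint-positive replicate 1 and 0.14 without Skint-negative replicate 1). In the EGF and FGF list 10 of 23 were tested and 1, Egfr, was lower. In the BMP and TGF-beta list 12 of 24 were tested and 1, Tgfb2, was higher. The edgeR adjusted p of Egfr was 0.0406 with all libraries and 0.6 without Skint-positive replicate 1, and that of Tgfb2 was 0.0289 with all and 0.56 without the same library. Among 14 Hedgehog genes 8 were tested, and Gli2 was the single call. With at least 3 gate genes no tested member of these Wnt, EGF and FGF, BMP and TGF-beta or Hedgehog lists was called.

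**Figure D4:**
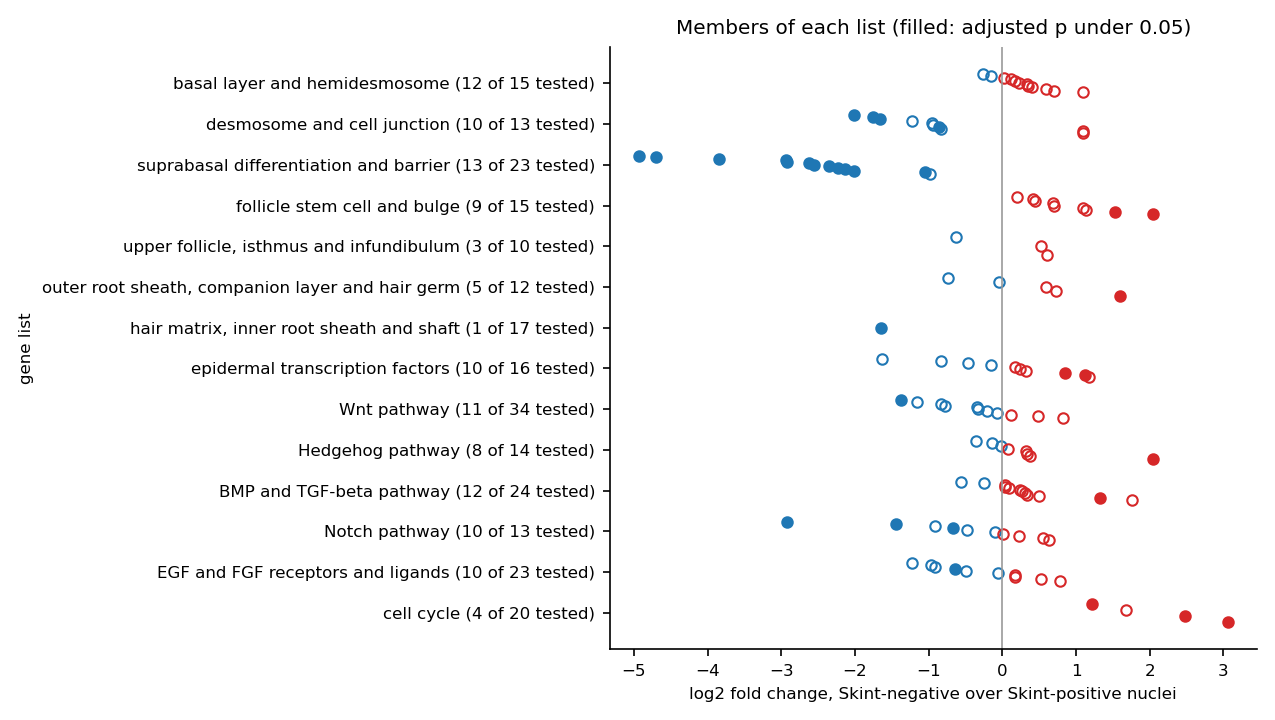
Log2 fold changes from edgeR of the tested members of each gene list, Skint-negative over Skint-positive nuclei, with filled points for genes called at adjusted p under 0.05. Suprabasal genes have a median of -2.56, basal genes of 0.28, follicle stem cell genes of 0.70 and cell cycle genes of 2.08. Genes were tested by their level in any class, so these medians are not independent of the filter on low counts.

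Of 20 cell cycle genes, 4 were tested and 3 were higher in Skint-negative nuclei, with a median log2 fold change of 2.08. The filter on low counts passes a gene by its level in any class. Top2a and Cenpf were low in every class but Skint-negative nuclei, so they were tested because they were high there. This count and median are therefore not independent of the filter. With at least 3 gate genes 0 of the 4 tested members were called. Top2a (chr11:98992943-99024189, minus strand) had 171 and 109 CPM in Skint-negative nuclei, against 37.7 and 0 CPM in Skint-positive nuclei (log2 fold change 2.48 ± 0.62, edgeR adjusted p = 0.00513). Cenpf (chr1:189640606-189688086, minus strand) had 119 and 101 CPM in Skint-negative nuclei, against 18.8 and 0 CPM in Skint-positive nuclei (3.06 ± 0.76, edgeR adjusted p = 0.00428). Neither overlapped between the classes, a pattern not counted over all tested genes. Diaph3, a formin of cytokinesis, had 431 and 210 CPM in Skint-negative nuclei, against 195 and 44.9 CPM in Skint-positive nuclei (1.22 ± 0.35, edgeR adjusted p = 0.019).

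A Top2a UMI was found in 10.0% and 6.73% of Skint-negative nuclei, against 3.23% and 0% of Skint-positive nuclei and 0.791% and 0.61% of other nuclei. Without Skint-negative replicate 1, which held 10 of the 13 nuclei of the Top2a and Anln group, the edgeR adjusted p was 0.34 for Top2a, 0.25 for Cenpf and 0.76 for Diaph3. It was 0.051 for Cenpf without Skint-negative replicate 2, 0.13 for Cenpf and 0.05 for Top2a without Skint-positive replicate 1, and 0.12, 0.15 and 0.15 for Top2a, Cenpf and Diaph3 without Skint-positive replicate 2. With DESeq2 the adjusted p was 0.12, 0.081 and 0.52 for Top2a, Cenpf and Diaph3.

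Promoters are shown for the cell cycle genes Top2a and Cenpf, called higher in Skint-negative nuclei but not among the largest rises, and for Krt10, called lower. Each runs 5' to 3' on the gene's strand over 150 bases before to 20 after the RefSeq start (GRCm38.p6), at chr11:99024170-99024339, chr1:189688067-189688236 and chr11:99389345-99389514, all on the minus strand. Capitals mark matches on either strand to TTTGAA (reverse complement TTCAAA), the core of the cell cycle homology element, to the CCAAT box (reverse complement ATTGG) and to the TATA-type motif TATAAA (reverse complement TTTATA), and no matches overlapped.
Top2a: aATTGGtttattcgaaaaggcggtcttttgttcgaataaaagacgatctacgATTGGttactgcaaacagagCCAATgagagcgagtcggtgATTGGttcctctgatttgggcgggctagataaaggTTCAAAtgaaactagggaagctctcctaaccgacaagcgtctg
Cenpf: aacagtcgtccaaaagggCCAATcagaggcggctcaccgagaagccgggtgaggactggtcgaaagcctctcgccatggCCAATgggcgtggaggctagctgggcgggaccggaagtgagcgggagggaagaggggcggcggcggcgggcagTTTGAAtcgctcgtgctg
Krt10: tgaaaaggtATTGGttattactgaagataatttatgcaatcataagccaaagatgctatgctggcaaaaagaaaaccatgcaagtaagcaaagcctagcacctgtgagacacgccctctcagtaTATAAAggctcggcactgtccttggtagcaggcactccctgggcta
Top2a and Cenpf each held 1 TTTGAA match, and 4 and 2 CCAAT matches. Krt10 held 0 TTTGAA, 1 CCAAT and 1 TATAAA match. Among 32851 RefSeq windows of this length, 10.0% held TTTGAA, 26.3% CCAAT and 8.10% TATAAA. These are letters found in the windows and not measured sites.

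By size of change alone, the higher genes were led by transcripts of small groups of nuclei. Kcnk2 (chr1:189207930-189402273, minus strand) had 70.3 and 67.3 CPM in Skint-negative nuclei, against 0 and 0 CPM in Skint-positive nuclei, at least 5.22-fold higher (edgeR adjusted p = 0.00163, and 0.21 without Skint-positive replicate 1). In all, 21 of its 24 UMIs lay in the Kcnk2 and Tgm5 group. Lockd, a non-coding RNA beside Cdkn1b, had 158 and 84.1 CPM in Skint-negative nuclei, against 6.28 and 0 CPM in Skint-positive nuclei (edgeR adjusted p = 0.000185, and 0.1 without Skint-negative replicate 1 and 0.08 without Skint-positive replicate 1).

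Tmem233, Pygm, Prkcq, Alpk2, Mylk2 and Nctc1, muscle genes among them such as the glycogen phosphorylase Pygm and the myosin kinase Mylk2, had 93.8%, 63.3%, 82.9%, 87.5%, 82.6% and 100% of their UMIs in the Ttn and Neb group. Without Skint-positive replicate 1, 5 of the 6, all but Prkcq, were no longer called by edgeR. Rarb, a retinoic acid receptor, Cep85, Fam189a2 and Nusap1, a spindle protein, had at most 21.4% of their UMIs in that group, and their edgeR adjusted p without Skint-positive replicate 1 was 0.35, 0.44, 0.17 and 0.35.

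The genes called among nuclei with at least 3 gate genes were looked up after their values were seen. Pdzrn3, a ubiquitin ligase, had 1059 and 951 CPM in all Skint-negative nuclei, against 270 and 329 CPM in Skint-positive nuclei (log2 fold change 1.78 ± 0.24, edgeR adjusted p = 8.52e-08). Other nuclei had more, 1204 and 1151 CPM, and 117 of the UMIs in Skint-negative nuclei lay in the Ttn and Neb group and 99 in the Adamts2 and Olfml1 group. Cdh13, T-cadherin, had 2286 and 1927 CPM in Skint-negative nuclei, against 1187 and 659 CPM in Skint-positive nuclei (1.13 ± 0.20, edgeR adjusted p = 2.53e-05). Rad51b, a recombination repair gene, had 1125 and 1077 CPM in Skint-negative nuclei, against 628 and 314 CPM in Skint-positive nuclei (1.10 ± 0.22, edgeR adjusted p = 0.000339). Of the Cdh13 UMIs in Skint-negative nuclei, 224 lay in the Il20ra group and 117 in the Ttn and Neb group. Of those of Rad51b, 133 lay in the group led by Ctnnd2 and Pparg. For each of the 3 genes the classes did not overlap. They were picked because they were called, and how many of all tested genes did not overlap was not counted.

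On the lower side, Slco3a1, an organic anion transporter, had 690 and 976 CPM in Skint-negative nuclei, against 2613 and 3443 CPM in Skint-positive nuclei (-1.89 ± 0.19, edgeR adjusted p = 1.99e-11). Esrp1, the epithelial splicing regulator, had 145 and 118 CPM in Skint-negative nuclei, against 440 and 449 CPM in Skint-positive nuclei (-1.73 ± 0.29, edgeR adjusted p = 9.18e-06, and 0.18 with the gate read at 1000 UMIs). The other genes called in these nuclei were Cep112, Sema3e, Kcnma1, Hmcn1, Adgrl2, Alcam, Trps1, Grip1 and Tenm2 on the higher side, and Dsp, Gng12, Cttnbp2, Notch3, Clec2g, Krt10, Ptgs1 and an unnamed gene model on the lower.

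Against other nuclei, Skint-negative nuclei were higher in most tested genes of the basal layer, of desmosomes and junctions and of the epidermal transcription factors. Of 9 tested follicle stem cell genes, 2 were higher. The Skint-negative sums are those of the comparison above, so the results share those libraries. Keratinocyte gate genes split these same nuclei, so genes whose transcripts come with them were bound to differ here too. List members such as Krt15, Dsg3, Tfap2c and Top2a were low in other nuclei and were tested through their level in keratinocyte nuclei. Counts of higher list members were therefore partly set by the filter on low counts. Of the 5334 genes, 523 (9.81%) were higher and 652 (12.2%) were lower in Skint-negative nuclei by edgeR, 22.0% together.

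Among the named genes, the largest change was that of Dsg2, desmoglein 2, at 87.9 and 109 CPM in Skint-negative nuclei, against 2.44 and 3.84 CPM in other nuclei (log2 fold change 4.82 ± 0.49, edgeR adjusted p = 7.54e-12). Il20ra (chr10:19712570-19760053, plus strand) had 154 and 227 CPM in Skint-negative nuclei, against 5.56 and 10.8 CPM in other nuclei (4.43 ± 0.36, edgeR adjusted p = 2.78e-15). Grhl2, a grainyhead factor of epithelial identity (chr15:37233036-37363569, plus strand), had 167 and 177 CPM in Skint-negative nuclei, against 9.22 and 8.89 CPM in other nuclei (4.08 ± 0.35, edgeR adjusted p = 2.52e-14). In all 3 genes each Skint-negative library lay above both libraries of other nuclei, a pattern not counted over all tested genes.

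Lgr6 had 334 and 252 CPM in Skint-negative nuclei, against 16 and 15.9 CPM in other nuclei (log2 fold change 4.07 ± 0.29, edgeR adjusted p = 6.48e-18), and a Lgr6 UMI was found in 28.7% and 22.1% of Skint-negative nuclei, against 1.79% and 1.66% of other nuclei. Frem2, a basement membrane protein, Cenpf, Cdh3, the P-cadherin of basal and follicle cells, Dsg3, Glt1d1, Ifitm10 and Fcgbp had log2 fold changes of 4.47, 4.23, 4.13, 4.07, 3.96, 3.96 and 3.90. Lrrc7 completed the largest rises, but its edgeR adjusted p was 0.2 without Skint-negative replicate 2. The largest falls were Lhfpl2, at 8.79 and 16.8 CPM in Skint-negative nuclei against 112 and 86.7 CPM in other nuclei (-3.30 ± 0.52, edgeR adjusted p = 1.08e-06), Kdelr3, an endoplasmic reticulum retention receptor, at -2.80, Nxph1 at -3.28 and Adarb2 at -2.71. Nxph1 had an edgeR adjusted p of 0.28 without replicate 2 of the other nuclei, and Adarb2 of 0.22 without replicate 1.

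Of the 12 tested basal layer genes, 10 were higher in Skint-negative nuclei than in other nuclei, all but Itgb1 and Dst. Those exceptions were abundant in other nuclei, Itgb1 at 142 and 153 CPM and Dst at 785 and 656 CPM. Krt15 and Cdh3 were low in other nuclei and were tested through their level in keratinocyte nuclei. The count is therefore not independent of the filter on low counts. Itga6, the integrin partner of hemidesmosomes (chr2:71745616-71858416, plus strand), had 330 and 278 CPM in Skint-negative nuclei, against 27.7 and 28.4 CPM in other nuclei (log2 fold change 3.30 ± 0.25, edgeR adjusted p = 3.29e-16). Krt15 (chr11:100131758-100135928, minus strand) had 145 and 202 CPM in Skint-negative nuclei, against 13 and 14.2 CPM in other nuclei (3.49 ± 0.35, edgeR adjusted p = 5.91e-12). Krt14, the basal keratin, had 101 and 185 CPM in Skint-negative nuclei, against 16.9 and 22.3 CPM in other nuclei (2.65 ± 0.37, edgeR adjusted p = 4.55e-08).

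Of the 10 desmosome and junction genes tested, 9 were higher, among them Cdh1, E-cadherin, at 255 and 143 CPM in Skint-negative nuclei against 18.0 and 19.5 CPM in other nuclei (log2 fold change 3.35 ± 0.28, edgeR adjusted p = 1.38e-14). Of the 13 suprabasal genes tested, 3 were higher: Casz1, Dsg1a and Exph5, the last with an edgeR adjusted p of 0.56 without Skint-negative replicate 1. Krt10 had 18.7 and 28.8 CPM in other nuclei and a log2 fold change of -1.08 ± 0.72 (edgeR adjusted p = 0.333).

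Of the 10 transcription factors tested, 8 were higher, including all 3 AP-2 genes. Tfap2a, Tfap2b and Tfap2c had log2 fold changes of 2.93 ± 0.36, 3.19 ± 0.40 and 2.93 ± 0.45 (edgeR adjusted p = 2.71e-09, 3e-09 and 4.57e-07). Tfap2b had 123 and 84.1 CPM in Skint-negative nuclei, against 11.3 and 9.61 CPM in other nuclei. Klf5, Satb1, Nfib and Bach2 were also among them, and the edgeR adjusted p was 0.094 for Satb1 without Skint-negative replicate 1 and 0.12 for Nfib without replicate 1 of the other nuclei. Gata3 had a log2 fold change of 2.98 ± 0.30 (edgeR adjusted p = 4.82e-12), so its level in Skint-negative nuclei lay between that of other and of Skint-positive nuclei. All 4 tested cell cycle genes were higher, and Top2a had 9.22 and 8.89 CPM in other nuclei (log2 fold change 3.85 ± 0.39, edgeR adjusted p = 8.88e-12).

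Of 9 follicle stem cell genes tested, 2 were higher and 1 was lower. Vdr, the vitamin D receptor needed for hair cycling, had 70.3 and 109 CPM in Skint-negative nuclei, against 5.69 and 8.17 CPM in other nuclei (log2 fold change 3.52 ± 0.45, edgeR adjusted p = 7.01e-09), and Krt15 was the other. Tcf7l1, a Wnt-pathway repressor also made by dermal cells, had 259 and 236 CPM in Skint-negative nuclei, against 495 and 462 CPM in other nuclei (-1.08 ± 0.21, edgeR adjusted p = 4.15e-05). Lgr5 had a log2 fold change of -0.52 ± 0.23 and was not called. Of 5 outer root sheath genes tested, Cdh3, Barx2, Bcl11b and Cux1 were higher, and the edgeR adjusted p was 0.14 for Barx2 without replicate 1 of the other nuclei, 0.17 for Bcl11b without Skint-negative replicate 1 and 0.21 for Cux1 without Skint-negative replicate 2.

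In the Wnt list, Znrf3 and Rnf43, ubiquitin ligases that remove Wnt receptors, were higher in Skint-negative nuclei, with log2 fold changes of 1.53 ± 0.20 and 3.17 ± 0.44 (edgeR adjusted p = 9.87e-09 and 4.94e-08), and Fzd6 was the last of 3 called genes, with an edgeR adjusted p of 0.31 without Skint-negative replicate 1. The 3 called Wnt genes were among 11 tested. Of 10 Notch genes tested, 3 were higher and 2 lower in Skint-negative nuclei. The ligand Jag2 had 132 and 151 CPM in Skint-negative nuclei, against 17.1 and 13.9 CPM in other nuclei (3.0 ± 0.36, edgeR adjusted p = 1.47e-09). Maml3 had 972 and 707 CPM in Skint-negative nuclei, against 250 and 202 CPM in other nuclei (1.76 ± 0.18, edgeR adjusted p = 6.09e-12). Jag1 was also higher and Rbpj and Maml2 lower, with an edgeR adjusted p of 0.73, 0.42 and 0.22 without Skint-negative replicate 1.

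In the EGF and FGF list 3 of 10 tested genes were higher and 3 lower in Skint-negative nuclei. Fgfr3, a receptor for fibroblast growth factors, had 48.4 and 58.9 CPM in Skint-negative nuclei, against 4.74 and 4.08 CPM in other nuclei (log2 fold change 3.38 ± 0.56, edgeR adjusted p = 2.24e-06). Fgf7, a ligand that fibroblasts make for keratinocytes, had 39.6 and 0 CPM in Skint-negative nuclei, against 100 and 111 CPM in other nuclei (-2.19 ± 0.46, edgeR adjusted p = 0.000152). Fgfr2 and Erbb3 were also higher and Errfi1 and Egfr lower, with an edgeR adjusted p of 0.41, 0.17, 0.29 and 0.082 without Skint-negative replicate 1. In the BMP and TGF-beta list 12 were tested, 0 were higher and 4 were lower, Tgfb2, Tgfbr1, Tgfbr2 and Tgfbr3. Of the 8 Hedgehog genes tested 3 were lower, Gli3, Cdon and Disp1. Without replicate 1 of the other nuclei, the edgeR adjusted p was 0.24 for Tgfb2, 0.24 for Tgfbr1, 0.08 for Tgfbr2 and 0.091 for Tgfbr3, and without Skint-negative replicate 2 it was 0.58 for Gli3, 0.21 for Cdon and 0.084 for Disp1.

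In the wounded libraries the same gate took in 14 of 802 barcodes in replicate 1 and 28 of 875 in replicate 2, with 10236 and 17929 UMIs. Replicate 1 was below the 20 barcodes set for a test, so none was made. The keratinocyte markers outside the gate summed to 1563 and 1394 CPM in the wounded barcodes, from 16 and 25 UMIs, against 1191 and 1456 CPM in the unwounded nuclei. Malat1, a non-coding RNA retained in the nucleus, made up 0.0586% and 0.452% of the UMIs of the wounded barcodes, against 7.12% and 7.32% in the unwounded nuclei. Fibroblast markers were at 293 and 1060 CPM in the wounded barcodes, against 5772 and 6546 CPM in the unwounded nuclei. Wounding and this difference in nuclear RNA cannot be told apart in these libraries.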

How the data were processed

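Single-nucleus RNA was measured in 2 wounded and 2 unwounded libraries of mouse back skin. The authors deposited unnormalised UMI counts, which they made using Cell Ranger 5.0.1 and the GRCm38 build, per the submitters' processing notes. The sources used here give neither the annotation release nor whether intronic reads were counted. The members, gene lists and naming rules were chosen with earlier results of these data known.

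Nuclei were classed by the gate in each unwounded library. Counts were summed per class (Skint-negative, Skint-positive, sebaceous, other) and library, giving 8 sums, and tested with edgeR 4.0.16 in R 4.3.3 (filterByExpr, TMM, glmQLFit, glmQLFTest, library as a block because classes of the same library share a sample, Benjamini-Hochberg adjustment). With filterByExpr a gene passes by its level in any class, so list members that were tested are not all members. Where a member passed only through a class in which it was high, its direction was largely set. List counts and medians are therefore not independent support. CPM in the text is raw counts over the class total, while fitted log2 fold changes include TMM scaling. Exact permutation with 2 libraries a class reaches p = 0.333 at best and was left aside. A value of 0 was read as at most 3 counts. UMIs were taken as molecules, so floors and Wilson intervals cover counting error only.

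Clusters came from 2000 variable genes, 30 principal components, 15 neighbours and Leiden resolution 1 in scanpy 1.11.5. Named genes were the 12 of largest change in each direction against Skint-positive nuclei, and 12 higher and 4 lower against other nuclei, at 50 CPM or more in the higher class with the same direction in both libraries, and up to 6 members of smallest p per list, without gate genes, gene models, mitochondrial and ribosomal genes. Gene positions are GENCODE vM21 (GRCm38), matched for 32158 of 32285 genes. Promoters are RefSeq sequences. On simulated data, the fit against Skint-positive nuclei recovered 9 of 100 genes changed 2-fold and 68 of 100 changed 4-fold. It made 1 false call among 5149 unchanged genes. Alternatives were RLE factors, DESeq2 1.42.0, no filter, no block, only both keratinocyte classes, each library left out, other depth limits, thinning of the gate and, chosen after seeing the data, leaving out nuclei with muscle or fibroblast markers.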

Additional observations from a re-analysis of the deposited data

How the results depend on the processing

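Against Skint-positive nuclei, 155 genes were higher and 221 lower. DESeq2 called 60 higher and 126 lower, and the fit of only both keratinocyte classes with the replicate block 63 and 109. Without the replicate block 100 were higher, and without the filter on low counts 133 were lower. Leaving out each library gave 53 to 174 higher and 82 to 196 lower. With the gate read at 1000 UMIs 55 were higher and 56 lower, and with at least 3 gate genes 12 and 10. Without nuclei of muscle markers the counts were 54 and 118, and without nuclei of muscle or fibroblast markers 103 and 133. Against other nuclei, 523 were higher and 652 lower. Leaving out each library gave 232 to 385 and 217 to 534, the gate at 1000 UMIs 250 and 285, nuclei of at least 1000 UMIs 430 lower and DESeq2 223 lower. The share of Skint-negative nuclei in the group with bulge and outer root sheath markers was 12.2%, and 16.7 to 25.0% in either library alone. The cell cycle group was 5.12%, 11.4% at resolution 0.5 and 6.00 to 23.1% in either library alone. Of the 2 fibroblast-marker groups, the Adamts2 and Olfml1 group was 24.8% of the nuclei and the group of highest fibroblast sum was 9.06%, and the group of highest sum was 29.9% at resolution 0.5, 26.8% without the gate genes and 25.0 to 26.7% in either library alone. The muscle group was 4.33%, and 3.85 to 4.0% in either library alone. No named gene that was called changed sign under the alternatives run. Alternatives for the wounded barcodes were not run, as replicate 1 held 14. A gene at 0 in the Skint-negative sums could lie at up to 13.2 and 25.2 CPM, and most genes of the cell cycle, hair matrix and upper follicle lists were not tested. The cause of these shifts was not tested.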
